A study of Mus musculus with 6 samples.

Results

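Translation initiation factors (Eif genes) and translation elongation factors (Eef genes) were examined in green fluorescent cells sorted from the mouse hippocampus. The set was defined by symbol: every row of the deposited table whose symbol begins with Eif1 to Eif6 or with Eef1 or Eef2 and that holds a value in all 6 libraries. The table had 77 such rows, and 5 of them, all members of the Eif1ad family (Eif1ad2, Eif1ad4, Eif1ad6, Eif1ad7 and Eif1ad19), were blank in all libraries. The rule left out 4 more, the sex-linked Eif2s3x, Eif2s3y and Eif1ax and the interferon-induced kinase gene Eif2ak2. This gave 68 genes of the 20323 with values. The rule reads symbols and not levels, but it was set with earlier results of these data known.

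Initiation factors bring the initiator tRNA and the small ribosomal subunit to the start codon of an mRNA. eIF2 carries the tRNA, eIF3 is a scaffold on the small subunit, and the eIF4F complex binds the 5' cap and unwinds the leader. Elongation factors then deliver aminoacyl-tRNAs (eEF1A) and move the ribosome along (eEF2). Growth factor receptors act on this machinery through mTORC1, a kinase complex that phosphorylates the eIF4E-binding proteins, and cellular stress acts on it through kinases that phosphorylate eIF2. These controls work mostly on proteins and on ribosome loading, and RNA sequencing measures only the amount of each transcript.

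The animals carried Nestin-CreERT2, a tamoxifen-inducible Cre driven by the promoter of a progenitor filament gene, and Rosa26-mGFP, a membrane GFP reporter that Cre switches on, so the label covers Nestin-expressing cells and whatever they become. Cells were pulled out with an anti-GFP magnetic sort, and 1 mouse brain gave 1 sample. All 6 mice, controls included, had eaten cuprizone, a copper chelator that kills oligodendrocytes, for 10 weeks and then recovered for 4 weeks. During recovery 3 mice received vehicle, which was 0.1% bovine serum albumin in saline, and 3 received neuregulin 1 beta 1 (Nrg-1β1), a growth factor that activates ErbB receptors. The series text gives its dose as 60 µg per kg per day and the sample labels name grams, so the dose is uncertain. No mouse without cuprizone was part of the design analysed here, and the labels give no age.

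The libraries differed widely in depth. Vehicle libraries 1 and 3 held 72953034 and 47076006 reads, and the other 4 held 567073 to 1327003, so every Nrg-1β1 library and vehicle library 2 were shallow. The translation factor genes took 0.508% to 0.547% of reads in the vehicle libraries and 0.536% to 0.578% in the Nrg-1β1 libraries. In absolute terms this was 370780 and 254896 reads in the deep libraries and 3280 to 7111 in the shallow ones. Vehicle library 3 stood apart in carrying many reads of both Xist (1045) and the Y-linked Ddx3y (1994), transcripts that are normally high in opposite sexes. Vehicle libraries 1 and 2 had 3255 and 216 Xist reads beside 82 and 1 Ddx3y reads, while the Nrg-1β1 libraries had 2, 3 and 1 Xist reads beside 29, 22 and 15 Ddx3y reads. These are raw reads, and a deep library gives more of them at the same level. The sex of the animals is not in the labels, Xist reads separate the groups, and a difference by treatment and one by sex cannot be told apart in any comparison below. The labels call the cells neural progenitor cells, but 8 markers of mature oligodendrocytes summed to 94163 to 190975 normalized counts per library, against 1915.1 to 2278.2 in vehicle and 3104.6 to 3220.8 in Nrg-1β1 for 8 neural stem cell markers. Those 2 ranges did not overlap, but the 8 stem cell markers were split. Of them 5 were higher in Nrg-1β1 and 3 lower, with log2 differences from -1.655 to 1.962. Past the threshold described below, 1 was higher and 0 were lower. Other types were present as well. The summed level of 8 endothelial markers was 540.2 to 2516.2 normalized counts in vehicle and 103.3 to 124.6 in Nrg-1β1, with 6 of 8 lower past that threshold. For 8 microglial markers it was 5795.1 to 9135.0 and 2128.3 to 2661.1, with 5 of 8 lower. The 8 choroid plexus and ependymal markers (4 lower) summed to 1617.6 to 5293.9 and 209.4 to 294.7, and Kcne2 had no read in the Nrg-1β1 libraries. For 5 red blood cell markers it was 3293.8 to 9488.5 and 437.5 to 1999.1, with 4 of 5 lower. The 8 astrocyte markers summed to 25825.2 to 37961.0 and 47250.8 to 47711.5 with 0 past the threshold. The part of these shifts in the levels below was not tested. In sorted bulk RNA, fewer cells of a type and less RNA per cell cannot be told apart.

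None of the 68 translation factor genes passed the test between Nrg-1β1 and vehicle. The test was limma on the log2(normalized count + 4) values as deposited, fitted on all 20323 genes, with a Benjamini-Hochberg adjusted p of at most 0.05 as the threshold. Over all genes the test called 1.06%, of which 0.438% were higher in Nrg-1β1 and 0.625% lower. At an unadjusted p under 0.05, 9 members were higher (13.2% of the members, against 6.15% of all genes) and 6 were lower (8.82%, against 6.86%). In limma-voom on the recovered reads, 22.1% of the members were under an unadjusted 0.05, against 25.2% of all genes with the library factors of the file and 21.5% with library totals, so the members' higher share was not seen there. Voom called 0 members, and only 22 and 14 genes in the whole table. Centring each library on its median brought 3 members past the threshold (Eif3h, Eif3e and Eif4ebp2, all higher in Nrg-1β1), which is 4.41% against 2.46% of all genes. The median difference was 0.02 on the log2 scale, beside 0.03 over all genes, with 35 members above 0 and 33 below. In the voom fits the members' medians were 0.03 and 0.034, beside 0.25 and 0.266 over all genes, so the likeness to the whole table did not hold there. Without vehicle library 3, which held reads of both sex-linked transcripts, the members' median was -0.129, and 4 of the 20323 genes and 0 members were called. Member by member the differences ran from -1.40 (Eif4e3) to 1.55 (Eif3m).

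The precision was limited, so a missed threshold does not show that levels were alike. The standard errors of the 68 differences ran from 0.281 to 0.75, with a median of 0.373. The 95% interval of the difference lay inside a log2 change of 1 in both directions for 18 members, among them Eif4e, Eif5a, Eif3b, Eif3c, Eif1b and Eif4g3. For the other members a change of 2-fold in at least 1 direction was within the interval. At least 10 reads in every library were found for 37 members.

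**Figure D1:**
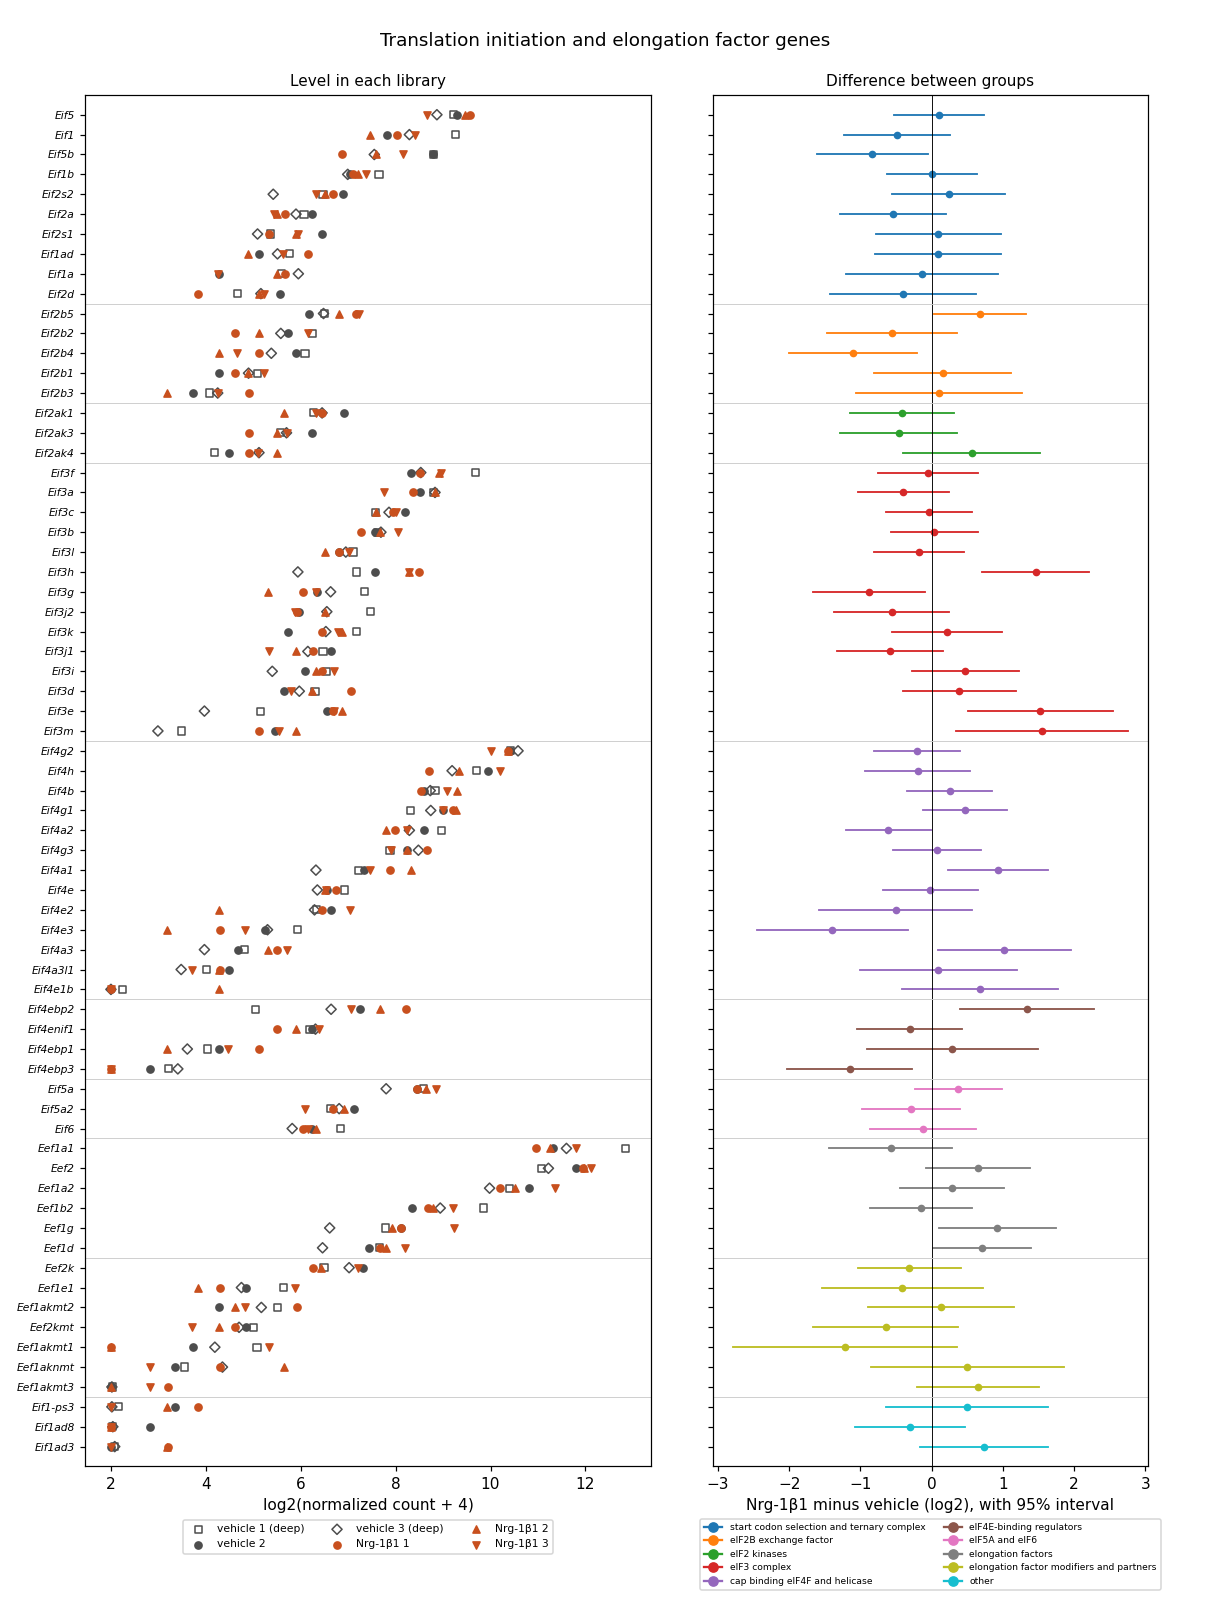
Left, log2(normalized count + 4) of each of the 68 genes in each library (open symbols, the 2 deep vehicle libraries; filled grey, vehicle library 2; orange, the Nrg-1β1 libraries); right, the Nrg-1β1 minus vehicle difference with its 95% interval from limma, coloured by role. Eef1a1 and Eef2 are the highest in every library. Eef1a2 and Eif4g2 come next, except in Nrg-1β1 library 3, where Eif4h (10.21) lies above Eif4g2 (10.02). Most intervals in the right panel cross 0.

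The count of genes whose groups did not overlap was near that of the whole table. All 3 Nrg-1β1 libraries lay above all 3 vehicle libraries for 7 members, 10.3% of them against 7.37% of all genes. They lay below for 9 members, 13.2% against 10.4%. Depth split some members as well. That split sets 2 libraries against 4 and treatment sets 3 against 3, so their counts are not directly comparable. Both deep vehicle libraries lay below all 4 shallow libraries for 8 members (11.8%, against 7.89% of all genes) and above them for 5 members (7.35%, against 9.89%). The split by depth and the split by treatment share libraries, and 3 vehicle libraries of which 1 is shallow cannot separate them well.

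Among promoter sequences, one short motif was shared by several members. RefSeq promoters on GRCm38.p6, from 250 bases before to 50 bases after an annotated start, were found for 49 of the 68 genes. The 8 letters CCGGAAGT, a core that ETS-family factors are known to bind, were searched on both strands. They occurred for 9 of the 49 members (18.4%) and for 6.81% of the 14357 genes with both a value and a promoter. The 9 genes were Eef1b2, Eif4e2, Eif5a2, Eif2b4, Eif2ak1, Eif5a, Eif2b2, Eif3d and Eif3l, and Eif5a2 had 2 occurrences. Genes with more than 1 annotated start had more windows in which to hold a match. The median difference between the groups was -0.29 for these 9 and 0.06 for the other 40 members with a promoter, and none of either passed. The windows below show the motif in capitals for 6 members, on the gene's strand. Eef1b2, Eif2b4, Eif4e2, Eif2ak1 and Eif2b2 are shown because the motif starts at most 16 bases from the annotated start, and Eif5a2 because it holds 2 copies, of which the nearer one is printed. In Eif2ak1 the motif lies on the opposite strand and so reads as its reverse complement.

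Eef1b2, chr1:63176821-63176850, plus strand: ctgcagttccgCCGGAAGTagccgaggcct
Eif2b4, chr5:31193120-31193149, minus strand: cccagtgcacgCCGGAAGTtgtagtccgct
Eif4e2, chr1:87213905-87213934, plus strand: tcgccagccaaCCGGAAGTagccgggccct
Eif2ak1, chr5:143817796-143817825, plus strand: gctcttgtgttACTTCCGGcttggggggag
Eif2b2, chr12:85219486-85219515, plus strand: cctctctcggcCCGGAAGTgaaacagtgct
Eif5a2, chr3:28781230-28781259, plus strand: cggggcctatcCCGGAAGTgtggtcgcggc

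Many transcripts of ribosomal proteins and elongation factors begin with a C and a run of pyrimidines, the TOP element through which mTORC1 controls their translation. At the annotated start itself, a C followed by at least 4 pyrimidines was found for 1 of the 49 members, Eif3f, against 2.94% of the 14357 genes. Annotated starts can be off by several bases, so its lack at the other starts says only that these letters were not at that position. The Eif3f start is printed with the run in capitals, because it is the single match.

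Eif3f, chr7:108934405-108934434, plus strand: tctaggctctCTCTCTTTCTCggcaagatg

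Among the factors that choose the start codon, 0 of 10 members passed, 5 differences were positive and 5 negative, and the median was -0.07. Eif5b, which encodes the GTPase that joins the ribosomal subunits, had the largest of them. Its log2 values were 8.80, 8.79 and 7.55 in vehicle and 6.88, 7.59 and 8.16 in Nrg-1β1, a difference of -0.84 ± 0.37 (SE, limma adjusted p = 0.338). The groups overlapped, since vehicle library 3 lay with the Nrg-1β1 libraries. Eif2s1 encodes the eIF2 alpha subunit that the stress kinases phosphorylate. It had values of 5.36, 6.45 and 5.09 in vehicle and 5.33, 5.91 and 5.95 in Nrg-1β1, a difference of 0.10 ± 0.42 (SE, limma adjusted p = 0.931) with a 95% interval of -0.78 to 0.97. Eif2a, an alternative tRNA carrier, lay at 6.07, 6.23 and 5.90 in vehicle and 5.66, 5.49 and 5.44 in Nrg-1β1. Its groups did not overlap, but its difference of -0.54 ± 0.35 (SE) did not pass (adjusted p = 0.565, limma), and the Nrg-1β1 libraries held only 8 to 13 reads of it. Eif1, which guards start codon accuracy, had values of 9.26, 7.82 and 8.29 in vehicle and 8.03, 7.47 and 8.40 in Nrg-1β1, a difference of -0.49 ± 0.35 (SE, limma adjusted p = 0.618) with overlap. Its paralog Eif1b differed by 0.00, Eif5 by 0.10 and Eif2s2, the eIF2 beta subunit, by 0.24. Eif1a, Eif1ad and Eif2d differed by -0.14, 0.09 and -0.40, with as few as 2 to 5 reads in a library.

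eIF2B is the 5-subunit exchange factor that recharges eIF2 with GTP, and its genes are those mutated in vanishing white matter disease. None of the 5 passed, and the median difference was 0.10. The 2 members with the smallest p pointed in opposite directions. Eif2b5, the catalytic epsilon subunit, had values of 6.50, 6.17 and 6.48 in vehicle and 7.16, 6.80 and 7.23 in Nrg-1β1, a difference of 0.68 ± 0.31 (SE, limma adjusted p = 0.356). Eif2b4, the delta subunit, had values of 6.09, 5.90 and 5.38 in vehicle and 5.13, 4.27 and 4.66 in Nrg-1β1, a difference of -1.10 ± 0.43 (SE, limma adjusted p = 0.253). In both genes the groups did not overlap, and the shallow vehicle library 2 lay with the deep ones. The Nrg-1β1 values of Eif2b4 rest on 6, 3 and 7 reads. Within each library, the log2 value of Eif2b5 minus that of Eif2b4 was 0.41, 0.27 and 1.10 in vehicle and 2.04, 2.53 and 2.57 in Nrg-1β1. This gap of 1.78 between the group means had p = 0.1 (exact permutation test, two-sided). That is the smallest p that 3 against 3 allows, so the contrast could not pass, and the pair was chosen with these values known. Eif2b1, Eif2b2 and Eif2b3 differed by 0.15, -0.56 and 0.10, and their groups overlapped.

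The 3 eIF2 kinases on the list respond to amino acid lack (Eif2ak4, GCN2), misfolded protein in the endoplasmic reticulum (Eif2ak3, PERK) and heme lack (Eif2ak1, HRI). None passed. Eif2ak3 had values of 5.57, 6.23 and 5.70 in vehicle and 4.90, 5.49 and 5.72 in Nrg-1β1, a difference of -0.47 ± 0.39 (SE, limma adjusted p = 0.686) with a 95% interval of -1.29 to 0.36. Eif2ak4 had values of 4.19, 4.49 and 5.12 in vehicle and 4.90, 5.49 and 5.10 in Nrg-1β1, a difference of 0.56 ± 0.46 (SE, limma adjusted p = 0.669) with an interval of -0.40 to 1.52. Eif2ak1 differed by -0.41, with an interval of -1.15 to 0.32. For all 3 the groups overlapped, and the Nrg-1β1 libraries held 5 to 25 reads of each.

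The eIF3 subunit genes held the largest positive differences among the translation factors. Of 14 genes 0 passed, 7 were above 0 and 7 below, and the median was 0.00. Eif3h came closest to the threshold of all 68 genes. Its values were 7.18, 7.56 and 5.94 in vehicle and 8.49, 8.28 and 8.29 in Nrg-1β1, from 60 to 2329 reads per library. The groups did not overlap, and the difference was 1.46 ± 0.36 (SE, limma adjusted p = 0.0527), with a 95% interval of 0.71 to 2.21. With 1 library left out, its difference lay between 0.98 and 1.79 and its adjusted p between 0.117 and 0.438. Eif3e had values of 5.15, 6.55 and 3.97 in vehicle and 6.67, 6.86 and 6.70 in Nrg-1β1, a difference of 1.52 ± 0.48 (SE, limma adjusted p = 0.141). Eif3m had values of 3.49, 5.46 and 2.99 in vehicle and 5.13, 5.91 and 5.54 in Nrg-1β1, a difference of 1.55 ± 0.58 (SE, limma adjusted p = 0.232).

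In these 3 genes the deep vehicle libraries 1 and 3 were the low ones, and the shallow vehicle library 2 was the highest of its group. Vehicle library 2 lay within the Nrg-1β1 range for Eif3m, just below it for Eif3e and clearly below it for Eif3h. Eif3e spanned 2.89 log2 units over the 6 libraries and 0.315 over the 4 shallow ones. With read depth class as a term, so that the Nrg-1β1 libraries are set against vehicle library 2 alone, the difference was 0.20 for Eif3e and 0.06 for Eif3m, and 0.79 for Eif3h. The other subunits spanned less than these 3 genes, from 0.596 (Eif3l) up to 2.03 log2 units (Eif3g). Eif3b, Eif3c and Eif3l spanned the least, 0.787, 0.624 and 0.596 log2 units over all 6 libraries, and their differences were 0.04, -0.03 and -0.18. eIF3b, with eIF3a, eIF3g and eIF3i, forms the part of the complex that reaches around the small subunit.

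Eif3g, the RNA-binding subunit, pointed the other way. Its values were 7.34, 6.34 and 6.63 in vehicle and 6.04, 5.31 and 6.32 in Nrg-1β1, a difference of -0.88 ± 0.37 (SE, limma adjusted p = 0.308), and library 2 of the vehicle group lay just above the highest Nrg-1β1 library. Eif3a, the largest subunit, differed by -0.40, Eif3d, a cap-binding subunit, by 0.39 and Eif3i by 0.47. Eif3f and Eif3k differed by -0.05 and 0.21. The near-identical copies Eif3j1 and Eif3j2, whose reads the counting could have split, differed by -0.59 and -0.56. Measured within each library against Eif3a, Eif3h lay at -1.62, -0.96 and -2.89 in vehicle and at 0.13, -0.56 and 0.53 in Nrg-1β1 (exact permutation test, two-sided, p = 0.1). The same contrast overlapped between the groups for Eif3e and Eif3m (p = 0.2 each, exact permutation test).

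**Figure D2:**
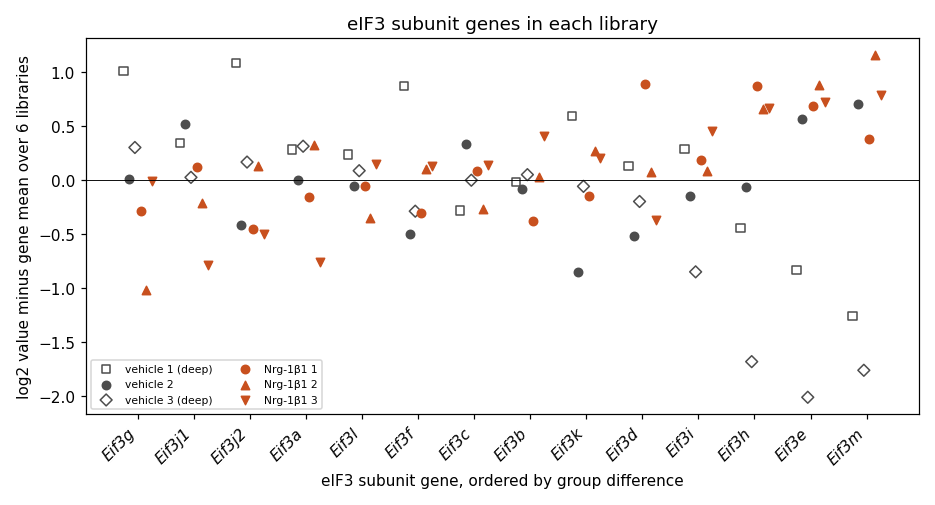
Log2 value of each of the 14 eIF3 subunit genes in each library after subtracting that gene's mean over the 6 libraries, ordered by the Nrg-1β1 minus vehicle difference (open grey, the 2 deep vehicle libraries; filled grey, vehicle library 2; orange, Nrg-1β1). For Eif3h, Eif3e and Eif3m at the right, the 2 open symbols are lowest and vehicle library 2 lies nearer to the Nrg-1β1 libraries.

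In the eIF4F complex, eIF4E binds the cap, eIF4G is the scaffold and eIF4A the helicase. Of 13 members with the accessory and related factors, 0 passed, 7 were above 0 and 6 below, and the median was 0.07. The cap-binding gene Eif4e had the smallest difference of them. Its values were 6.93, 6.55 and 6.35 in vehicle and 6.75, 6.51 and 6.53 in Nrg-1β1, a difference of -0.02 ± 0.32 (SE, limma adjusted p = 0.985) with a 95% interval of -0.68 to 0.65. The relative Eif4e2, which takes part in repression, differed by -0.51. Eif4e3 had values of 5.94, 5.25 and 5.30 in vehicle and 4.29, 3.19 and 4.82 in Nrg-1β1, a difference of -1.40 ± 0.51 (SE, limma adjusted p = 0.215). Its groups did not overlap, and the Nrg-1β1 libraries held 3, 1 and 8 reads. With reads summed over each group, its vehicle level was 2.77 times the Nrg-1β1 level, with a 95% interval of 1.58 to 5.37 that covers counting error only. The vehicle sum rests on the deep libraries 1 and 3 (946 and 585 reads, against 11 in library 2), so this ratio sets deep libraries against shallow ones.

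The helicase paralogs Eif4a1 and Eif4a2 had differences of opposite sign, and neither passed. Eif4a1, typical of dividing cells, had values of 7.22, 7.33 and 6.32 in vehicle and 7.89, 8.32 and 7.47 in Nrg-1β1, a difference of 0.93 ± 0.33 (SE, limma adjusted p = 0.209). Eif4a2, abundant in brain, had values of 8.97, 8.60 and 8.29 in vehicle and 7.98, 7.80 and 8.25 in Nrg-1β1, a difference of -0.61 ± 0.29 (SE, limma adjusted p = 0.373). The groups did not overlap for either gene, though for Eif4a2 the lowest vehicle and the highest Nrg-1β1 library were only 8.29 against 8.25. The log2 value of Eif4a1 minus that of Eif4a2 in the same library was -1.75, -1.26 and -1.97 in vehicle and -0.09, 0.52 and -0.78 in Nrg-1β1. The group means of this contrast were -1.66 ± 0.36 and -0.12 ± 0.65 (SD, n = 3 each, exact permutation test, two-sided, p = 0.1). The shallow vehicle library 2 lay with the vehicle group here. Eif4a3, a related helicase of the exon junction complex, had values of 4.82, 4.68 and 3.97 in vehicle and 5.50, 5.31 and 5.72 in Nrg-1β1. Its difference was 1.02 ± 0.44 (SE, limma adjusted p = 0.319), on 7 to 16 reads in the Nrg-1β1 libraries. Its near copy Eif4a3l1 differed by 0.09, and the counting could have split their reads.

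None of the scaffold genes passed. Eif4g1 had values of 8.31, 9.00 and 8.74 in vehicle and 9.20, 9.27 and 9.00 in Nrg-1β1, a difference of 0.47 ± 0.28 (SE, limma adjusted p = 0.518) with a 95% interval of -0.12 to 1.06. Eif4g2, which works without eIF4E, had values of 10.42, 10.40 and 10.58 in vehicle and 10.37, 10.37 and 10.02 in Nrg-1β1. Its groups did not overlap, and its difference was -0.21 ± 0.29 (SE, limma adjusted p = 0.756). Eif4g1 minus Eif4g2 in the same library gave -2.11, -1.39 and -1.83 in vehicle and -1.17, -1.10 and -1.02 in Nrg-1β1 (exact permutation test, two-sided, p = 0.1). Eif4g3 differed by 0.07, and the helicase cofactor genes Eif4b and Eif4h by 0.25 and -0.20. The oocyte form Eif4e1b had 12 reads in vehicle library 1 and 3 in Nrg-1β1 library 2 and none elsewhere.

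The eIF4E-binding proteins hold eIF4E back until mTORC1 phosphorylates them, and Eif4ebp2 is their main form in brain. With Eif4enif1 the class held 4 genes, of which 0 passed, and the median was -0.01. Eif4ebp2 had values of 5.05, 7.25 and 6.64 in vehicle and 8.22, 7.67 and 7.07 in Nrg-1β1, a difference of 1.34 ± 0.45 (SE, limma adjusted p = 0.169), with a 95% interval of 0.40 to 2.28. Vehicle library 1 was low and vehicle library 2 lay within the Nrg-1β1 range. Against vehicle library 2 alone the difference was 0.40. Eif4ebp1 had values of 4.03, 4.28 and 3.61 in vehicle and 5.13, 3.19 and 4.47 in Nrg-1β1, and its difference of 0.29 ± 0.57 (SE, limma adjusted p = 0.830) had a 95% interval of -0.91 to 1.49. For Eif4ebp3, vehicle held 88, 1 and 110 reads and every Nrg-1β1 library held 0. With a floor of 3 reads over the Nrg-1β1 group, its level there was at least 1.43-fold below the pooled vehicle level. That pooled level rests almost wholly on the 2 deep libraries, and at this depth a small or a large change is possible. Eif4enif1, which carries eIF4E into the nucleus, differed by -0.31.

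eIF5A helps the ribosome past proline-rich stretches and is the only known protein with hypusine, and eIF6 keeps the large subunit apart from the small one. Eif5a had values of 8.59, 8.46 and 7.80 in vehicle and 8.45, 8.65 and 8.86 in Nrg-1β1, a difference of 0.37 ± 0.29 (SE, limma adjusted p = 0.650) with a 95% interval of -0.24 to 0.98. Its paralog Eif5a2 had values of 6.62, 7.13 and 6.81 in vehicle and 6.67, 6.92 and 6.08 in Nrg-1β1, a difference of -0.29 ± 0.33 (SE, limma adjusted p = 0.721) with an interval of -0.98 to 0.40. Eif6 differed by -0.12. The groups overlapped for all 3.

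Per kilobase of transcript, Eef1a1, Eef2 and Eef1a2 were the most abundant members. Levels of different genes were compared as normalized counts per kilobase of the longest annotated protein-coding transcript. In vehicle Eef1a1 stood at 2408 ± 1460, Eef2 at 875 ± 247, Eef1a2 at 663 ± 191 and Eef1b2 at 298 ± 160 (SD, n = 3). In Nrg-1β1 the same genes stood at 1488 ± 465, 1340 ± 91.9, 838 ± 367 and 246 ± 48.2 (SD, n = 3). In vehicle the ranges over libraries overlapped for Eef2 (697.9 to 1156) and Eef1a2 (481.2 to 862.1), and Eef1a1 lay above both. In Nrg-1β1 they overlapped for Eef1a1 (1106 to 2005) and Eef2 (1268 to 1443), and Eef1a2 lay below Eef2. Eef1b2 lay below Eef1a2 in both groups. By comparison, Eif4e stood at 19.0 ± 4.1 in vehicle and 18.6 ± 1.8 in Nrg-1β1, far under these 4 genes.

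Of the 6 elongation factor genes 0 passed, 4 were above 0 and 2 below, and the median difference was 0.47, or 0.26 against vehicle library 2 alone. Eef2, the translocase, had log2 values of 11.08, 11.80 and 11.22 in vehicle and 11.94, 11.98 and 12.12 in Nrg-1β1. The groups did not overlap, the difference was 0.65 ± 0.35 (SE, limma adjusted p = 0.457), and vehicle library 2 was nearest to the Nrg-1β1 libraries. Eef1a1, the common form of the tRNA carrier, had values of 12.84, 11.31 and 11.60 in vehicle and 10.96, 11.25 and 11.81 in Nrg-1β1. Vehicle library 1 was high, the groups overlapped, and the difference was -0.58 ± 0.41 (SE, limma adjusted p = 0.610) with a 95% interval of -1.44 to 0.29. Eef1a2, the form of neurons and muscle, had values of 10.40, 10.81 and 9.98 in vehicle and 10.19, 10.51 and 11.35 in Nrg-1β1, a difference of 0.29 ± 0.35 (SE, limma adjusted p = 0.735) with an interval of -0.44 to 1.02. Eef1a1 has many processed copies in the genome, so its reads could have been split in counting.

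The eEF1B complex recharges eEF1A with GTP. Its genes were uneven in their differences. Eef1g had values of 7.79, 8.12 and 6.61 in vehicle and 8.12, 7.93 and 9.23 in Nrg-1β1, a difference of 0.92 ± 0.39 (SE, limma adjusted p = 0.306), with Nrg-1β1 library 3 the highest. Eef1d had values of 7.66, 7.44 and 6.46 in vehicle and 7.68, 7.80 and 8.19 in Nrg-1β1, a difference of 0.71 ± 0.33 (SE, limma adjusted p = 0.372), and its groups were only just separate. Eef1b2 had values of 9.86, 8.34 and 8.94 in vehicle and 8.69, 8.79 and 9.20 in Nrg-1β1, a difference of -0.15 ± 0.34 (SE, limma adjusted p = 0.849) with a 95% interval of -0.87 to 0.56. Vehicle library 1 was the highest for both Eef1a1 and Eef1b2, and vehicle library 3 the lowest for Eef1a2, Eef1g and Eef1d.

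**Figure D3:**
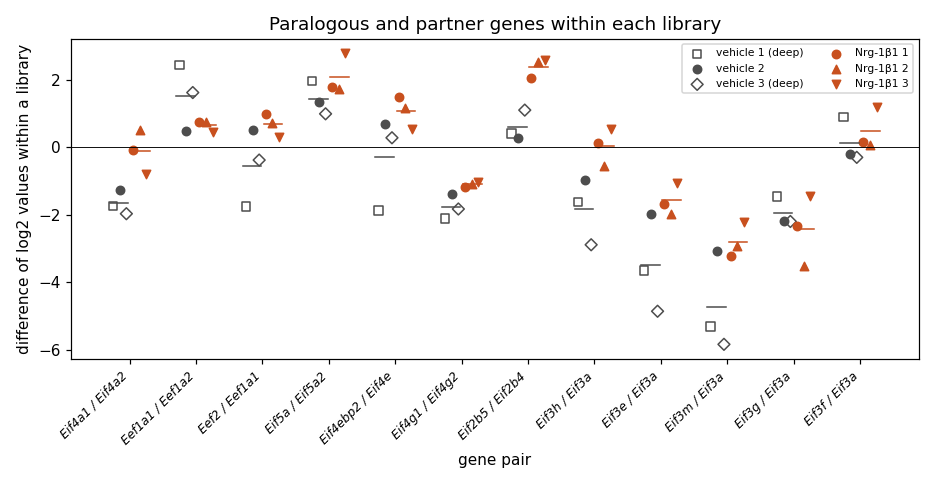
Difference of the log2 values of 2 genes in the same library for 12 pairs, with 1 symbol per library (open grey, deep vehicle; filled grey, vehicle library 2; orange, Nrg-1β1) and a short line at each group mean. The groups do not overlap for Eif4a1 / Eif4a2, Eif4g1 / Eif4g2, Eif2b5 / Eif2b4 and Eif3h / Eif3a.

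These within-library contrasts do not depend on how a library was scaled apart from the added 4, which weighs on low values. In all 12 pairs were computed, chosen with the values known, and 4 of them had groups that did not overlap. How often other gene pairs would separate was not computed. With 3 libraries against 3 the exact permutation test cannot go below p = 0.1 (0.3 after Benjamini-Hochberg adjustment over the 12), so no pair could pass and the contrasts are a description. Eef1a1 minus Eef1a2 was 2.44, 0.49 and 1.62 in vehicle and 0.76, 0.74 and 0.46 in Nrg-1β1, with overlap.

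Enzymes and partners of the elongation factors, other than Eef2k, had few reads. Of 7 genes 0 passed and the median difference was -0.32. Eef2k, the calcium-dependent kinase that halts eEF2, had values of 6.49, 7.31 and 7.02 in vehicle and 6.25, 6.42 and 7.20 in Nrg-1β1, a difference of -0.32 ± 0.34 (SE, limma adjusted p = 0.717) with a 95% interval of -1.04 to 0.41. The methyltransferase genes Eef2kmt, Eef1akmt1, Eef1akmt2, Eef1akmt3 and Eef1aknmt differed by -0.65, -1.22, 0.13, 0.65 and 0.50, with 0 to 12 reads of each in the Nrg-1β1 libraries. Eef1e1, a scaffold protein of the tRNA synthetase complex, differed by -0.41. The last 3 members, Eif1ad3, Eif1ad8 and the pseudogene Eif1-ps3, had at most 8 reads in any library, and no difference was detectable at that depth.

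Other genes of the translation pathway gave 1 call in 122 measured genes of 7 lists, which is 0.82% against 1.06% over all genes. It was Tpt1, which encodes a translationally controlled protein and whose mRNA is a known TOP mRNA. Tpt1 rose from 7.50, 7.63 and 6.57 in vehicle to 9.43, 9.58 and 8.49 in Nrg-1β1, a difference of 1.93 ± 0.35 (SE, limma adjusted p = 0.0097). The call held without vehicle library 1 (adjusted p = 0.036, limma) and was lost without any other single library (0.102 to 0.352). It was also lost with quantile normalization (0.0619), both voom fits (0.0618 and 0.0911) and read depth class as a term (0.57, where no gene of the table was called). The Tpt1 difference itself was 1.82, 2.03, 2.04 and 1.53 in these settings and 1.602 to 2.271 with a library left out. Vim, an intermediate filament gene on the same list, differed by -1.41 ± 0.44 (SE, limma adjusted p = 0.135). Among 23 genes of poly(A) binding, termination and recycling 0 passed and the median was -0.06. Nemf, a gene of the ribosome quality control pathway, had values of 6.64, 6.40 and 6.31 in vehicle and 5.13, 4.88 and 4.97 in Nrg-1β1. Its difference of -1.45 ± 0.36 (SE, limma adjusted p = 0.0565) missed the threshold, on 6, 5 and 9 reads in the Nrg-1β1 libraries. Gtpbp2, a ribosome rescue GTPase, differed by -0.86 (limma adjusted p = 0.274). Pabpc1, the poly(A)-binding protein that meets eIF4G, differed by -0.06.

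Of 29 genes of mTORC1 and cap-dependent control 0 passed, and the median was -0.02. The kinase gene Mtor differed by -0.16, its activator Rheb by 0.05, the inhibitor genes Tsc1 and Tsc2 by -0.03 and -0.02, and the eIF4A inhibitor Pdcd4 by 0.03. Akt2 and Deptor had the smallest p of the list, with differences of 0.79 and 1.22 (adjusted p = 0.23 and 0.263, limma). In the integrated stress response list 0 of 19 passed and the median was -0.23. Its central transcription factor Atf4 differed by -0.32 and Ddit3 by -0.02. Atf3, which is also an immediate early gene, differed by -1.35 (adjusted p = 0.105, limma), and the serine synthesis gene Psat1 by 0.88 (adjusted p = 0.223, limma). The hypusine and diphthamide enzymes (0 of 9), the mitochondrial translation factors (0 of 10) and the tRNA synthetases (0 of 22) had medians of -0.12, -0.10 and 0.03. The smallest p of each of these lists belonged to Dnajc24 and Dph7 (-0.89 and -0.64), Tufm and Mtrf1l (0.74 and -0.76), and Tars and Iars (-1.15 and -1.73), with limma adjusted p from 0.211 to 0.676. Apart from Tufm, no Nrg-1β1 library held more than 9 reads of any of them, and Iars had 0, 4 and 9.

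The ribosomal protein genes, which work beside these factors, were distributed otherwise in the same fit. Of 84 genes 5 rose and 0 fell (5.95% called, against 1.06% of all genes). Their median difference was 0.77, against 0.02 for the translation factors. Groups were separate with Nrg-1β1 above for 17 of the 84 (20.2%, against 7.37% of all genes) and below for 0 (against 10.4%). The deep vehicle libraries lay below all shallow ones for 24 of the 84 (28.6%, against 7.89% of all genes). They lay above for 2 (2.38%, against 9.89%). Against vehicle library 2 alone the median difference was 0.36. The difference between the ribosomal and the translation factor sets was not tested.

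**Figure D4:**
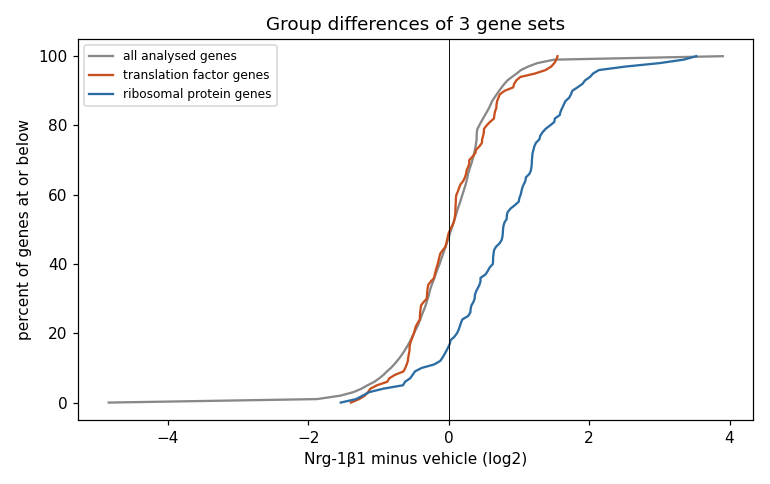
Percent of genes at or below each Nrg-1β1 minus vehicle log2 difference, for all 20323 analysed genes (grey), the 68 translation factor genes (orange) and the 84 ribosomal protein genes (blue). The orange curve follows the grey one around a median near 0, and the blue curve lies to the right with a median of 0.77.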

How the data were processed

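RNA of 3 vehicle and 3 Nrg-1β1 mice, 1 library each, was sequenced. The limma p-values set a group difference against the spread between libraries of a group, moderated towards that of genes of like level. At low read numbers that spread also holds counting error. Trimmomatic and Bowtie2 appear in the submitters' processing notes; build, counter, strand setting and scaling were not given in the sources used here. The authors' deposited table holds log2 values. Unlogged and reduced by 4, each column gave whole multiples of its own step (100% of values to 0.02 of a read), so values were taken as log2(normalized count + 4) and reads were recovered. Of 27102 rows, 20323 had values. Limma 3.58.1 (R 4.3.3, intensity trend, group only) gave differences, 95% intervals and Benjamini-Hochberg adjusted p-values over all genes. Intervals on pooled reads are exact (Clopper-Pearson), and they and the floors cover counting error only. GENCODE M21 gave transcript lengths. Members, lists and pairs were chosen with earlier results of these data known. Every member could be named. Full statistics went to the 2 members of each role with the smallest p among those with at least 10 reads in every library and to a core set; Eif2a, Eif2b4, Eif3m, Eif3g, Eif4e3, Eif4a3 and Eif4g2 were added after their values were seen. In each other list the called genes and the 2 with the smallest p were named; the remaining pathway genes were added as background. The test was also run on simulated counts at the read depths of these libraries, with a fixed dispersion. The simulation held no shared shifts of sex-linked or cell type transcripts between libraries. It therefore does not show how the test behaves with them. Alternatives covered normalization, filter, added constant, voom, robust shrinkage, depth, replicate block and each library left out.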

Additional observations from a re-analysis of the deposited data

How the results depend on the processing

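The count of translation factor genes past the threshold was 0 as reported and 0 under quantile normalization, a filter at a mean normalized count of 50, added constants of 1 and 16, both voom fits, read depth class as a term, and each library left out. Several of these zeros say nothing about the members: the whole table had 0 calls with the depth term and without vehicle library 2 or any 1 Nrg-1β1 library, 4 without vehicle library 3, and 22 and 14 in the voom fits. The count was 3 with library median centring (Eif3h, Eif3e and Eif4ebp2, all higher), which is 4.41% against 2.46% of all genes. It was 1 with robust variance shrinkage (Eif3h), which is 1.47% against 2.01% of all genes. Centring moved the median over all genes from 0.03 to 0.249 and that of the members from 0.02 to 0.235, and all-gene calls from 89 higher and 127 lower to 335 and 164. With 1 library left out the members' median ran from -0.129 to 0.133, the ends being vehicle libraries 3 and 1. The 15 members under an unadjusted 0.05 changed sign under 0 of 235 alternatives, and 33 of the other 53 changed sign under at least 1. The 15 were picked by their p in these same libraries, and differences far from 0 rarely change sign in refits. The kept signs are therefore no support for these members. A kept sign can also go with a far smaller difference, as for Eif3e and Eif3m with the depth term above. The count in the other translation lists was 1 as reported, 0 under quantile normalization and both voom fits, and 0 to 1 with a library left out. With robust shrinkage it was 2 of 122 genes, where 2.01% of all genes were called. Same-numbered animals share only a number: their deviations from the group means correlated at -0.274, -0.066 and -0.298. With the replicate block, 3 members (4.41%) and 5 genes of the other lists passed, against 3.09% of all genes. The causes of these changes were not tested. Genes with fewer than 10 reads in a shallow library are limited by depth.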
